A study of Mus musculus with 20 samples.

Results

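The 6 genes described here are PIWI genes and other genes of transposon silencing, followed in male germ cells of fetal and newborn mice. They are the PIWI genes Piwil1, Piwil2 and Piwil4, and Mael, Morc1 and Spocd1, whose proteins act with or beside PIWI proteins in silencing transposons. All were chosen by name, with earlier results of these data known, and their rows were read by gene symbol. Of the 6 genes, 5 had a row at each age, among 24495 symbols in the embryonic tables and 24341 in the d2 table, and Spocd1 was not analysed here. RNA sequencing covered 20 libraries of male germ cells that had been flow-sorted by green fluorescence from mice of a mixed strain background. The groups were Tex15+/- (heterozygous) and Tex15-/- (knockout) cells at embryonic days 16.5 (e16.5) and 18.5 (e18.5), with 3 libraries per genotype, and at postnatal day 2 (d2), with 4 libraries per genotype. No group had 2 working copies of Tex15, and all groups carried a fluorescence marker whose driving promoter is not given in the sources used here. The labels do not say whether the libraries of a group came from separate animals, so the p-values measure only the spread between these libraries, which may be technical.

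PIWI proteins are Argonaute relatives that bind piRNAs, short RNAs of the germ line, and use them to find matching transposon RNA. In fetal male germ cells of the mouse, MILI (the product of Piwil2) cuts transposon RNA in the cytoplasm and supplies piRNAs to MIWI2 (the product of Piwil4), which enters the nucleus and directs DNA methylation to young transposons. MIWI (the product of Piwil1) is best known from meiotic and later male germ cells, where it is the main PIWI partner of pachytene piRNAs. MAEL is a germ granule protein needed for transposon silencing, MORC1 is a nuclear ATPase needed to repress transposons in male germ cells, and SPOCD1 is a nuclear partner of MIWI2. TEX15 is a germ cell protein whose loss derepresses transposons and blocks sperm formation.

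All 5 measured genes were lower at d2 than at e16.5, at different steps (below), and the stretches before their start sites are shown for reference. RefSeq promoter windows (GRCm38.p6) were matched for 3 of the 5 measured genes, Mael, Piwil1 and Piwil4. Each line below gives the 250 bases before a start, 5′ to 3′ on the gene's strand. Capitals mark matches, on either strand, to CACGTG (an E-box), TTCCCGC (an E2F site), CCAAT or TATAAA, and no matches overlapped each other.
Mael, chr1:166238745-166238994, minus strand: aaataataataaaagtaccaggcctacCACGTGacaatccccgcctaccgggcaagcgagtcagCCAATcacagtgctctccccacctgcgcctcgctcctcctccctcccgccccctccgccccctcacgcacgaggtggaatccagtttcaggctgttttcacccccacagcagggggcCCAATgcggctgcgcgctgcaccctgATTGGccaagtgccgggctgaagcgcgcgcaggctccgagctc
Piwil1, chr5:128735996-128736245, plus strand: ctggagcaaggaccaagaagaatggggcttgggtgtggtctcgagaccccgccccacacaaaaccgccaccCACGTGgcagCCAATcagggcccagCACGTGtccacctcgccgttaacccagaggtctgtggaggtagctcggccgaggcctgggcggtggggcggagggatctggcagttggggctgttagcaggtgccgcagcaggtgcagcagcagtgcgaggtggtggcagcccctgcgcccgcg
Piwil4, chr9:14740673-14740922, minus strand: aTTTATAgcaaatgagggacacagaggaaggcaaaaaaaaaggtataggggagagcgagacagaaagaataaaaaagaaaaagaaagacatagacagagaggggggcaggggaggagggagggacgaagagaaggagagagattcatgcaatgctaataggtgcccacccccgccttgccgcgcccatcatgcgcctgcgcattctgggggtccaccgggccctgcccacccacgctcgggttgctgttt

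The Mael window held 1 CACGTG match, whose first base lies 223 bases before the start, and 3 CCAAT matches. The Piwil1 window held 2 CACGTG matches, at 179 and 154 bases before the start, and 1 CCAAT match between them at 169. In the Piwil4 window the only match was to TATAAA, at 249 bases before the start, and a second annotated Piwil4 start, with its window at chr9:14718388-14718637, had no match. Over the 32851 promoter windows of the same length, CACGTG occurred in 6.02%, TTCCCGC in 3.82%, CCAAT in 33.8% and TATAAA in 12.4%. Counted as CpG pairs, the windows of Mael, Piwil1 and the Piwil4 start shown above held 18, 16 and 10, the second Piwil4 window held 0, and the median over all promoters was 6 (quartiles 2 and 16). A match describes these letters only.

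The libraries held 14.3 to 31.5 M (mega) counts in all and 7.78 to 14.2 M in genes. Levels are in CPM, the counts-per-million of the gene total after TMM scaling over all 20 libraries. Tex15 measured 612 to 2103 CPM in the heterozygous libraries and 1.70 to 5.34 CPM in knockout libraries, except d2 knockout replicate 2 with 101.5 CPM. The summed level of 8 germ cell markers other than Mael was 2644 to 4553 CPM in every library, with Ddx4 and Dazl high throughout. Sums of somatic marker lists were far lower: 31.3 to 112 CPM for 10 Sertoli markers and 150 to 360 CPM for 11 stroma markers, with 1 of 7 Leydig markers and 5 of 7 red blood cell markers at 0 in each group. At e16.5 the stroma sum was 171 to 324 CPM in heterozygous and 150 to 182 CPM in knockout libraries. The sum of 8 white blood cell markers at e18.5 was 30.8 to 43.2 CPM and 90.2 to 109 CPM.

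Piwil2, the gene of the PIWI protein that feeds piRNA production, had overlapping levels at the embryonic ages in heterozygous cells and lower ones at d2. In heterozygous cells it measured 859, 730 and 854 CPM at e16.5, 796, 947 and 583 CPM at e18.5, and 467, 561, 474 and 464 CPM at d2. The embryonic ages overlapped and every d2 library lay below them. In knockout cells it measured 1054, 1057 and 998 CPM at e16.5, 826, 738 and 824 CPM at e18.5, and 452, 534, 484 and 426 CPM at d2. Here the 3 ages did not overlap. The knockout libraries of e16.5 lay above those of every other group, and the 2 genotypes overlapped at e18.5 and at d2. How many of all genes had genotypes apart at e16.5 was not counted.

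Piwil4, the gene of the nuclear PIWI protein, showed the steepest fall. Its heterozygous libraries measured 479, 470 and 268 CPM at e16.5, 150, 184 and 172 CPM at e18.5, and 51.6, 62.6, 76.5 and 39.8 CPM at d2. Those of the knockout measured 521, 473 and 342 CPM, then 172, 170 and 217 CPM, then 36.3, 42.8, 49.3 and 44.9 CPM. The ages formed 3 separate ranges in both genotypes, while the genotypes overlapped at each age. In percent of the e16.5 mean, the heterozygous level was 41.6% at e18.5 and 14.2% at d2, and the knockout level 41.8% and 9.74%. Replicate 3 was the lowest of its group in both genotypes at e16.5.

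Piwil1, the PIWI gene of later germ cells, was the lowest of the 5 genes per length of transcript at every age. Heterozygous libraries measured 51.2, 60.2 and 46.9 CPM at e16.5, 27.9, 31.6 and 27.4 CPM at e18.5, and 21.6, 32.6, 21.0 and 22.9 CPM at d2. Knockout libraries measured 61.8, 53.4 and 75.8 CPM, then 26.2, 31.6 and 31.5 CPM, then 15.6, 17.4, 15.5 and 27.5 CPM. In both genotypes e16.5 stood above the later ages, and the ranges of e18.5 and d2 overlapped. The counts behind these values were 119 to 937 per library, the fewest of the 5 genes.

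Mael, which acts in the germ granules and the nucleus, kept most of its level until e18.5. In heterozygous cells it measured 1799, 1549 and 1510 CPM at e16.5, 1465, 1395 and 1727 CPM at e18.5, and 568, 579, 660 and 703 CPM at d2. In knockout cells the values were 1827, 1805 and 1543 CPM, then 1217, 1281 and 1437 CPM, then 499.5, 682, 641 and 498 CPM. The genotypes overlapped at each age, and all d2 libraries lay below all embryonic ones. The 2 embryonic ages overlapped in heterozygous and not in knockout cells.

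Morc1, the nuclear ATPase gene, fell early. Heterozygous libraries measured 1017, 931 and 745 CPM at e16.5, 411, 404 and 396 CPM at e18.5, and 279, 280, 326 and 351 CPM at d2. Knockout libraries measured 1099, 1098 and 985 CPM, then 444, 457 and 491 CPM, then 232, 276, 299 and 221 CPM. The ages did not overlap in either genotype. At e18.5 all 3 knockout libraries lay above all 3 heterozygous ones, and at the other ages the genotypes overlapped. How many of all genes were apart in this way was not counted.

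**Figure D1:**
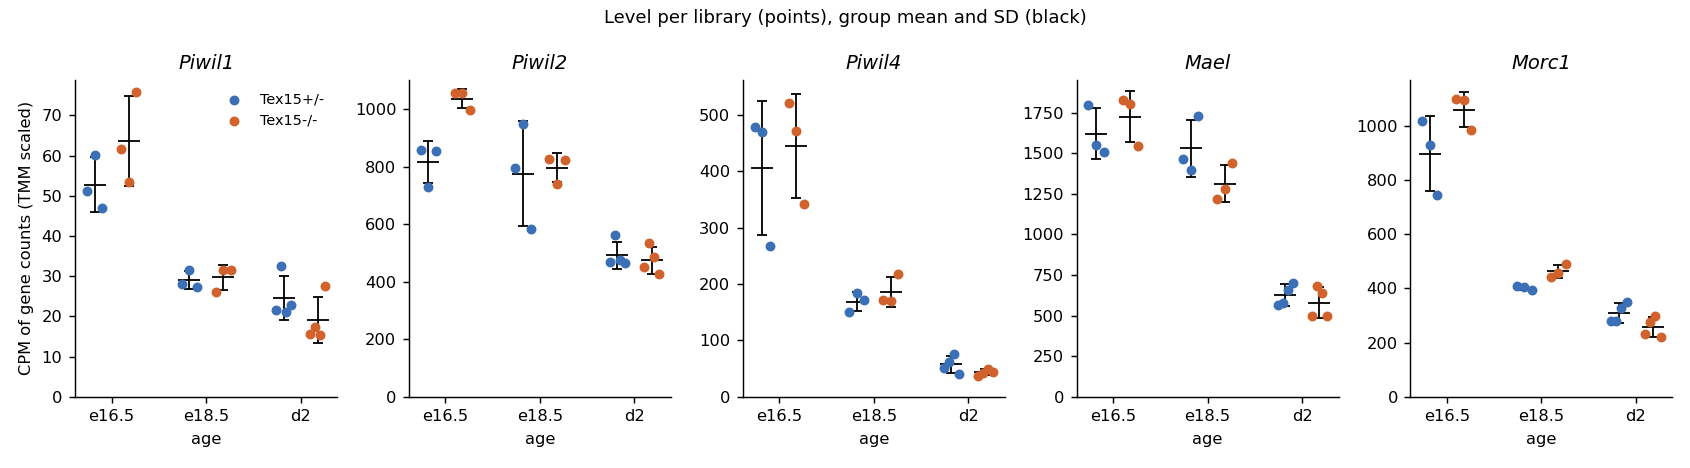
Level of each measured gene (CPM, linear axis from 0) in every library, by age and genotype; points are libraries, and black lines and bars are group means with SD. Piwil4 fell from 406 to 57.6 CPM in the heterozygous means and from 445 to 43.3 CPM in the knockout means, and the ranges of its genotypes overlap at each age.

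Per length of transcript, the order of the genes could be set within a library. CPM were divided by the exon length, 4016 bases for Piwil1, 4916 for Piwil2, 2637 for Piwil4, 1546 for Mael and 3045 for Morc1, taken from GENCODE models of a later build than the one counted on, so that these levels are approximate. In heterozygous cells at e16.5, Mael measured 1047 ± 101 CPM per kb (SD, n = 3), Morc1 295 ± 45.7, Piwil2 166 ± 14.8, Piwil4 154 ± 45.1 and Piwil1 13.1 ± 1.69. Piwil2 and Piwil4 overlapped there. By d2, Mael measured 406 ± 42.3 CPM per kb (SD, n = 4), Morc1 102 ± 11.6, Piwil2 99.99 ± 9.49, Piwil4 21.8 ± 5.95 and Piwil1 6.10 ± 1.36, and it was Morc1 and Piwil2 that overlapped.

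The balance between the PIWI genes differed between ages, with more Piwil2 per Piwil4 at each later age. The per-length ratio of Piwil2 to Piwil4 in heterozygous cells was 0.834 to 1.71 at e16.5, then 1.82 to 2.84 by e18.5 and 3.33 to 6.26 by d2, with no overlap between ages. In knockout cells it was 1.09 to 1.57, 2.04 to 2.58 and 5.09 to 6.69, which overlapped the heterozygous range at each age. Piwil4 per Piwil1 had a mean of 11.6 ± 2.78 (SD, n = 3), 8.87 ± 0.68 (n = 3) and 3.69 ± 1.31 (n = 4) in heterozygous cells, and 11.1 ± 3.65, 9.56 ± 1.21 and 3.66 ± 0.97 in knockout cells. Morc1 per Piwil2 differed between the embryonic ages without overlap, with 1.41 to 2.06 in heterozygous cells of e16.5 against 0.689 to 1.10 in those of e18.5, and the d2 range of 0.807 to 1.22 overlapped that of e18.5.

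**Figure D2:**
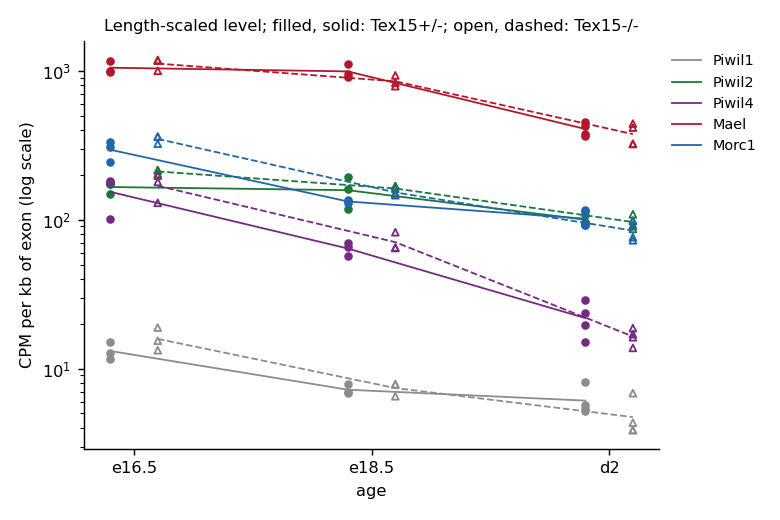
Per-length level (CPM per kb of exon, log axis) of the 5 genes by age; points are libraries and lines join group means (filled and solid for heterozygous, open and dashed for knockout). The Piwil2 and Piwil4 lines start close together, with a mean ratio of Piwil2 to Piwil4 of 1.17 in heterozygous e16.5 libraries, and end apart, with 4.81 at d2.

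The first comparison asked whether the loss of Tex15 changed these genes at each age. With edgeR, 0 of the 5 genes passed the adjusted threshold of 0.05 at e16.5, at e18.5 or at d2, against 0.0061%, 2.33% and 2.8% of all genes tested. DESeq2 also called 0 of 5 at each age. At an unadjusted p under 0.05 there were 1, 0 and 1 of the 5 genes, beside 7.73%, 11.3% and 16.2% of all genes. A p that misses the threshold does not show equal levels: over the 5 genes, the 95% intervals of the knockout to heterozygous ratio reached from 0.782 to 1.55 (e16.5), from 0.731 to 1.34 (e18.5) and from 0.543 to 1.13 (d2).

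At e16.5, all 5 estimates lay above 0, with a median log2 fold change of 0.22 beside -0.0085 over all genes. The median was 0.24 for the 9 germ cell markers, Mael included, and 0.18 for the 42 other pathway genes described below, with 0 called in both. For 4 Argonaute genes it was -0.05. Of the 5 genes, Piwil2 differed most, by 0.33 ± 0.12 (SE) on the log2 scale (unadjusted p = 0.0204, adjusted p = 0.629). It was the 1 gene of them without overlap between genotypes, and the share of all genes without overlap was not counted. Piwil1 gave 0.25 ± 0.17 (adjusted p = 0.704) and Morc1 0.22 ± 0.14 (adjusted p = 0.687). For Piwil4 the estimate was 0.11 ± 0.21 (adjusted p = 0.894) and for Mael 0.07 ± 0.13 (adjusted p = 0.893). Without heterozygous replicate 3 the Piwil4 estimate was -0.11, and without knockout replicate 1 it was -0.01. Beside these values, stroma and Sertoli marker sums had lower medians in knockout than in heterozygous libraries at e16.5 (158 against 316 CPM and 41.1 against 53.9 CPM). The Leydig sum was 26.1 to 113 CPM in heterozygous and 21.6 to 29.5 CPM in knockout libraries. Of 6 Leydig markers tested with edgeR, 4 had an unadjusted p under 0.05 and 0 passed (median log2 fold change -1.61). The part of these somatic markers in the estimates was not tested.

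At e18.5, Morc1 gave 0.20 ± 0.11 (adjusted p = 0.527) and was the 1 gene of the 5 without overlap between genotypes. The share of all genes without overlap was not counted here either. Piwil4 gave 0.14 ± 0.14 (adjusted p = 0.791). Mael was the 1 estimate below 0, at -0.22 ± 0.11 (adjusted p = 0.450). Piwil1 and Piwil2 gave 0.03 ± 0.19 and 0.03 ± 0.14 (adjusted p = 0.974 and 0.965), estimates that changed sign under 2 other settings and with single libraries left out. The median of the 5 was 0.03, beside -0.010 over all genes. It was -0.28 for the 8 germ cell markers tested, Mael included, with 0 called, and 0.002 for the 41 other pathway genes tested. The part of the germ cell markers in the estimates was not tested. The higher white blood cell marker sum of the knockout libraries at this age was given above, and its part in these values was not tested.

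At d2, all 5 estimates lay below 0, with a median of -0.27 beside -0.021 over all genes. Piwil4 gave -0.41 ± 0.19 (unadjusted p = 0.0454, adjusted p = 0.295), Piwil1 -0.37 ± 0.24 (adjusted p = 0.491) and Morc1 -0.27 ± 0.13 (unadjusted p = 0.0501, adjusted p = 0.308). Mael gave -0.12 ± 0.13 (adjusted p = 0.709) and Piwil2 -0.05 ± 0.11 (adjusted p = 0.867). All 5 genes overlapped between genotypes. Without knockout replicate 2, the library with 101.5 CPM of Tex15, the estimates were -0.41 for Piwil4, -0.33 for Piwil1, -0.31 for Morc1, -0.21 for Mael and -0.12 for Piwil2, with 0 of 5 called. The sum of the 8 germ cell markers was 2708 to 3115 CPM in heterozygous and 2961 to 4553 CPM in knockout libraries at d2, and its ranges overlapped. Most of that difference lay in Dazl (1584 ± 129 and 2424 ± 649 CPM, SD, n = 4), while Pou5f1 was at 7.55 ± 1.62 and 3.51 ± 1.45 CPM. Of all 9 germ cell markers, Mael included, 2 rose and 0 fell, where 2.03% of all genes rose and 0.776% fell. The median log2 fold change of the markers was 0.09, and their part in the estimates was not tested. Without heterozygous replicate 2 the Piwil2 estimate was 0.01.

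**Figure D3:**
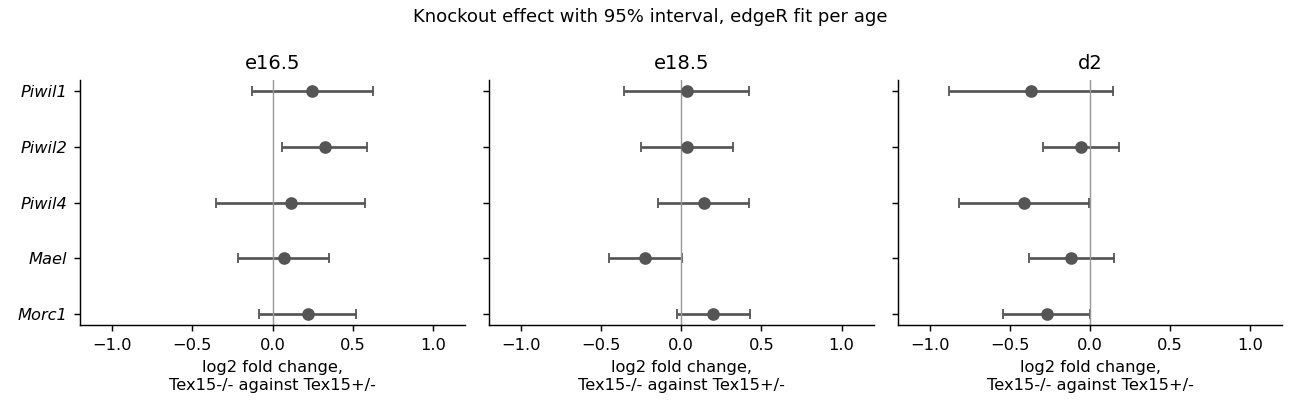
Log2 fold change of knockout against heterozygous libraries for each gene at each age, with 95% intervals. Estimates lie above 0 at e16.5 and below 0 at d2 for all 5 genes, and none passed the adjusted threshold.

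Whether the difference between genotypes itself changed with age was tested in 1 fit of all 20 libraries. Again 0 of 5 genes passed in each of 3 tests, e18.5 against e16.5, d2 against e18.5 and d2 against e16.5, where 0.0967%, 0.526% and 0.8% of all genes did. At an unadjusted p under 0.05 there were 0, 1 and 3 of the 5, beside 6.39%, 13.5% and 11.6% of all genes, and DESeq2 called 0 of 5 in each. Between e16.5 and d2 the knockout effect of Morc1 shifted by -0.51 ± 0.18 (SE, log2; unadjusted p = 0.00762, adjusted p = 0.221). The same shift was -0.64 ± 0.29 for Piwil1, -0.55 ± 0.28 for Piwil4, -0.40 ± 0.18 for Piwil2 and -0.20 ± 0.18 for Mael, with adjusted p from 0.390 to 0.694. The turn from estimates above 0 to estimates below 0 was thus not past the threshold for any of the 5 genes.

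The second comparison followed the genes with age in heterozygous cells. From e16.5 to e18.5, 3 of the 5 genes fell, beside 10.2% of all genes tested. Piwil4 fell 2.40-fold (log2 fold change -1.26 ± 0.21 SE, adjusted p = 0.000231), Morc1 2.23-fold (-1.15 ± 0.13, adjusted p = 2.6e-06) and Piwil1 1.82-fold (-0.86 ± 0.22, adjusted p = 0.00740). Without heterozygous e16.5 replicate 2 the Piwil1 call was lost (-0.75, adjusted p = 0.0549). Mael and Piwil2 did not pass, with -0.08 ± 0.14 and -0.07 ± 0.14 (adjusted p = 0.714 and 0.765), and their estimates changed sign when 1 library was left out. Of the 9 germ cell markers, Mael included, 5 fell and 1 rose at this step, with a median of -0.69, and of 10 Sertoli markers 0 passed (median 0.45). Their part in the falls was not tested. In bulk RNA of sorted cells, fewer cells of a type and less RNA per cell cannot be told apart.

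From e18.5 to d2, 4 of the 5 genes fell in heterozygous cells, beside 27% of all genes. Piwil4 fell 2.93-fold (log2 fold change -1.55 ± 0.20, adjusted p = 7.1e-07), Mael 2.44-fold (-1.29 ± 0.13, adjusted p = 7.4e-09), Piwil2 1.58-fold (-0.66 ± 0.13, adjusted p = 0.000137) and Morc1 1.31-fold (-0.38 ± 0.12, adjusted p = 0.0113). Piwil1 gave -0.24 ± 0.21 (adjusted p = 0.343). Over the whole span from e16.5 to d2 all 5 fell, beside 22.7% of all genes, by 7.04-fold for Piwil4, 2.90-fold for Morc1, 2.58-fold for Mael, 2.15-fold for Piwil1 and 1.66-fold for Piwil2. From e18.5 to d2, 2 of the 9 germ cell markers, Mael included, rose and 2 fell (median 0.14). At that step 4 of 10 Sertoli markers rose and 0 fell (median 0.32), where 24.1% of all genes rose. Beside the fall from e16.5 to d2, 6 of the 9 germ cell markers fell and 1 rose (median -0.95). Over that span 5 of 10 Sertoli markers rose and 0 fell (median 1.32), where 20.5% of all genes rose. The Sertoli sum stayed at 112 CPM or less. Their part was not tested. By these estimates, whose differences between genes were not tested, Morc1 and Piwil1 had most of their fall before e18.5, Mael and Piwil2 after it, and Piwil4 fell at both.

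These falls are relative to gene counts, and repeats took 43.2 to 65.0% of all counts. A refit took genes and repeats together as the library size, without TMM scaling, and what each of these changes contributed was not tested. In it the median of all genes between e18.5 and d2 in heterozygous cells moved from -0.08 to 0.26 on the log2 scale. All estimates moved up with it. The Piwil2 and Morc1 estimates then became -0.32 and -0.05 (adjusted p = 0.105 and 0.804) and that of Piwil1 0.11, so 2 of the 5 genes, Piwil4 and Mael, were called. From e16.5 to d2 the Piwil2 call was lost as well (-0.33, adjusted p = 0.0990). The d2 libraries come from a table with another set of gene symbols than the embryonic ones, and what age and table each contribute cannot be told apart.

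In knockout cells all 5 genes fell at each step. From e16.5 to e18.5, where 17.7% of all genes fell, Piwil4 fell 2.39-fold (log2 fold change -1.26 ± 0.21), Morc1 2.28-fold (-1.19 ± 0.13) and Piwil1 2.14-fold (-1.10 ± 0.22), with adjusted p from 4.2e-07 to 0.000435. Mael fell 1.31-fold (-0.39 ± 0.14, adjusted p = 0.0247) and Piwil2 1.30-fold (-0.38 ± 0.14, adjusted p = 0.0339). DESeq2 called neither of these (adjusted p = 0.0509 and 0.0575), and both calls were lost without knockout e16.5 replicate 1, e16.5 replicate 2 or e18.5 replicate 2, and that of Mael without e18.5 replicate 1, with adjusted p from 0.0556 to 0.0958. At this step 8 of the 9 germ cell markers, Mael included, fell and 0 rose in knockout cells (median -1.38). Of 10 Sertoli markers 4 rose and 0 fell, and of 11 stroma markers 6 rose and 1 fell, where 17.5% of all genes rose. From e16.5 to d2 the counts were 6 germ cell markers lower and 1 higher, 4 Sertoli markers higher and 0 lower, and 6 stroma markers higher and 1 lower. Over all genes 20.8% rose and 21.9% fell over that span. Their part was not tested.

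From e18.5 to d2, where 29.7% of all genes fell, Piwil4 fell 4.30-fold in knockout cells (log2 fold change -2.10 ± 0.20, adjusted p = 6.1e-09), Mael 2.26-fold, Morc1 1.81-fold, Piwil2 1.68-fold and Piwil1 1.56-fold (-0.64 ± 0.21, adjusted p = 0.0109). With repeats in the library size and no TMM scaling, the Piwil1 call was lost (-0.35, adjusted p = 0.192). At this step 4 of the 9 germ cell markers, Mael included, rose and 3 fell (median 0.45). Of 10 Sertoli markers 3 rose and 0 fell, and of 11 stroma markers 1 rose and 2 fell, where 25.3% of all genes rose. The part of these markers was not tested. From e16.5 to d2, where 21.9% of all genes fell, the falls were 10.3-fold for Piwil4, 4.13-fold for Morc1, 3.33-fold for Piwil1, 2.97-fold for Mael and 2.19-fold for Piwil2. These are larger than the heterozygous falls for each of the 5 genes, and the tests of that difference, given above, did not pass.

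**Figure D4:**
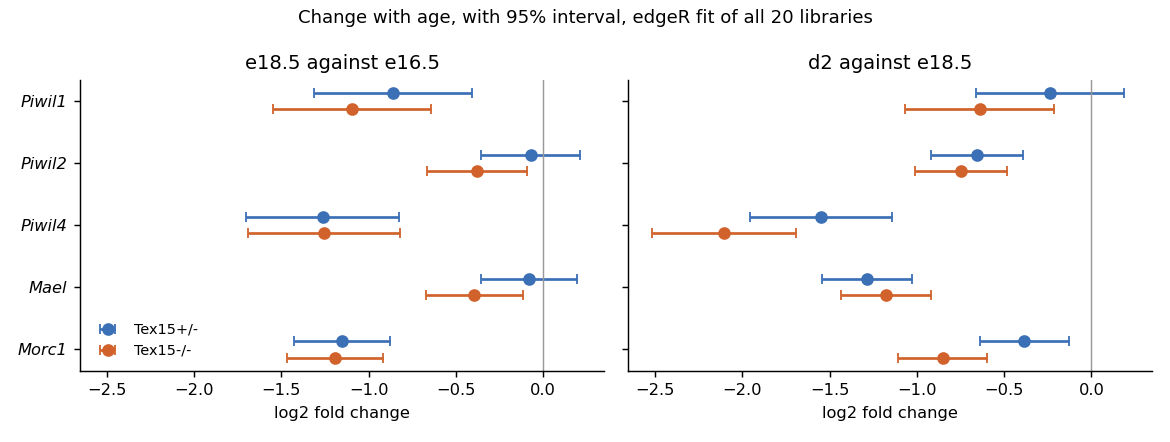
Log2 fold change of each gene between ages, with 95% intervals, in heterozygous and knockout cells. The plotted estimates all lie below 0. That of Piwil1 in heterozygous cells from e18.5 to d2 was 0.11 with repeats in the library size and no TMM scaling. The heterozygous Mael and Piwil2 estimates between the embryonic ages (-0.08 and -0.07) and the Piwil1 estimate between e18.5 and d2 (-0.24) have intervals that reach 0.

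The other genes of the pathway came from 4 lists of 43 genes, of which 42 had a row: piRNA biogenesis factors, tudor domain and granule proteins, the DNA methylation machinery downstream, and nuclear silencing factors. Between genotypes, edgeR called 0 of 42 tested genes at e16.5, 2 of 41 at e18.5 and 1 of 41 at d2, and DESeq2 0, 2 and 3. The share of all genes that edgeR called was 0.0061%, 2.33% and 2.8%, so 1 of 41 at d2 is near that share. Over all genes tested, DESeq2 called 22 of 16382, 584 of 18075 and 770 of 15340. At an unadjusted p under 0.05 there were 7, 3 and 8, beside 7.73%, 11.3% and 16.2% of all genes. Gtsf1, whose protein binds PIWI proteins and is needed for their cutting activity, measured 83.2 ± 12.7 CPM in heterozygous and 27.2 ± 1.48 CPM (SD, n = 3) in knockout cells at e18.5, and fell 3.06-fold (log2 fold change -1.61 ± 0.17 SE, adjusted p = 5.6e-06). Cbx5, which encodes the heterochromatin protein HP1 alpha, rose 1.72-fold at e18.5 (0.78 ± 0.12, adjusted p = 0.000552) and 1.52-fold at d2 (0.60 ± 0.12, adjusted p = 0.00775). With repeats in the library size and no TMM scaling, the d2 call of Cbx5 was lost (adjusted p = 0.0914). Of 4 Argonaute genes, relatives of the PIWI genes that work with microRNAs, 0 passed between genotypes at each age with edgeR or DESeq2, and 0, 0 and 1 had an unadjusted p under 0.05.

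Gtsf1 was also the 1 gene of the 42 that edgeR called for a knockout effect that differed between ages, with a shift of -2.13 ± 0.24 (adjusted p = 2.0e-05) from e16.5 to e18.5 and of 1.19 ± 0.22 (adjusted p = 0.00886) from e18.5 to d2. Its shift from e16.5 to d2 was -0.94 ± 0.22 (adjusted p = 0.0323), a call lost (adjusted p from 0.0517 to 0.112) when heterozygous replicate 2 or 3 or knockout replicate 2 or 3 of e16.5, or heterozygous replicate 1 or 2 or knockout replicate 1 or 3 of d2, was left out. At e16.5 Gtsf1 measured 66.1 ± 9.72 CPM in heterozygous and 94.7 ± 8.17 CPM in knockout cells, and at d2 90.3 ± 13.4 and 67.3 ± 7.54 CPM. None of the 5 PIWI and effector genes passed where Gtsf1 did.

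**Figure D5:**
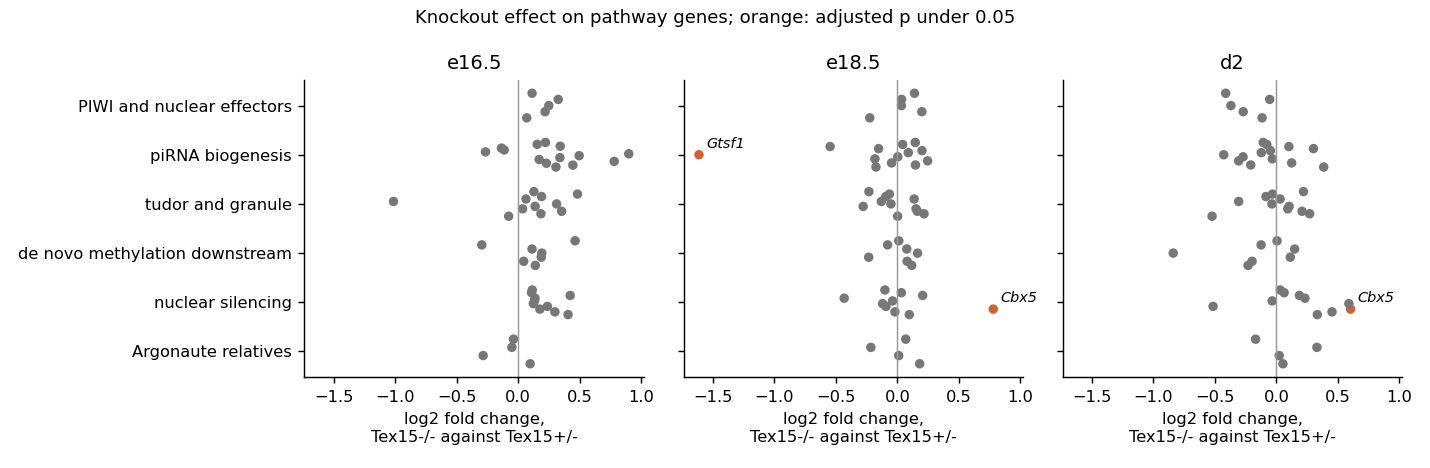
Log2 fold change of knockout against heterozygous cells at each age, for the PIWI and effector genes, the 4 pathway lists and the Argonaute genes; each point is 1 gene, and orange marks an adjusted p under 0.05. The called genes are Gtsf1 at -1.61 and Cbx5 at 0.78 at e18.5, and Cbx5 at 0.60 at d2.

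With age the pathway did not move as 1 block. In heterozygous cells from e16.5 to e18.5, 18 of the 42 genes fell and 1 rose, where 10.2% of all genes fell and 7.63% rose, with a median log2 fold change of -0.43 beside 0.04 over all genes. By list, 6 of 14 biogenesis factors, 8 of 11 tudor and granule genes and 4 of 10 nuclear silencing genes fell, while 0 of 7 methylation genes passed with edgeR or DESeq2 and 1 had an unadjusted p under 0.05. Asz1, a mitochondrial surface protein of piRNA production, fell 2.39-fold, the piRNA trimmer Pnldc1 2.15-fold, the tudor domain gene Stk31 1.85-fold and Cbx5 1.84-fold, with adjusted p from 3.8e-06 to 0.000187.

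From e18.5 to d2, 15 of the 42 rose and 15 fell in heterozygous cells, where 24.1% of all genes rose and 27% fell, with a median of 0.11 beside -0.08. Kdm1b, a histone H3K4 demethylase, fell 7.65-fold from 1937 ± 367 to 253 ± 37.5 CPM (adjusted p = 4.0e-13). Uhrf1, which guides maintenance DNA methylation in dividing cells, rose 15.7-fold from 12.4 ± 0.84 to 195 ± 69.5 CPM (adjusted p = 4.3e-12). Tdrd9 and Tdrd1, which encode tudor domain partners of MIWI2 and MILI, fell 2.66-fold and 1.99-fold (adjusted p = 6.2e-09 and 8.1e-08). Of the nuclear silencing genes, 5 of 10 rose and 1 fell. Over the 2 steps together, 23 of the 42 genes fell and 11 rose, where 22.7% of all genes fell and 20.5% rose. In knockout cells 29 fell and 2 rose in the first step, where 17.7% of all genes fell and 17.5% rose. In the second step 15 fell and 17 rose, beside 29.7% and 25.3% of all genes. Over both steps 27 fell and 10 rose, beside 21.9% and 20.8%.

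Transposon names that PIWI proteins are known to target are given beside the genes as levels, without a test. Of the names listed for this, L1Md_T, L1Md_Gf and IAPLTR1_Mm are not described here. L1Md_A, a young LINE element, measured 3961 to 5033 CPM in heterozygous and 3517 to 4473 CPM in knockout libraries at e16.5. Its ranges separated at e18.5, with 3138 to 7115 and 11121 to 12918 CPM, and at d2, with 549 to 905 and 2962 to 4031 CPM. IAPEz-int, the inner part of an endogenous retrovirus, measured 605 to 783 and 1003 to 1331 CPM at e16.5, 445 to 521 and 1039 to 1055 CPM at e18.5, and 244 to 326 and 1143 to 1421 CPM at d2. Of the 5 genes at these ages, the ranges of the genotypes were apart for Piwil2 at e16.5 and Morc1 at e18.5, both higher in knockout libraries, and overlapped otherwise. Such separations were not counted over all genes or over all repeat names.

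The genes whose level over the 20 libraries was most like that of each member were found among 13310 genes, by Pearson's r of log2 CPM. All libraries are shared by the genes compared, and most of the variation lies between ages, so r is given as a description. Nearest to Piwil4 were Hdac2, Mns1 and Cep85 (r = 0.98 each), and nearest to Morc1 were Supt6 (0.99), Trap1 and Usp40 (0.98 each). Mael was closest to Skiv2l2 (0.99), Zscan18 and Mtor (0.98 each), Piwil2 to Prpf6, Gars (0.97 each) and Eif4b (0.96), and Piwil1 to Usp5 (0.96), Mrpl16 and Slc4a11 (0.95 each). Hdac2, which encodes a histone deacetylase, went from 821 ± 94.3 CPM (SD, n = 3) in heterozygous cells at e16.5 to 303 ± 46.8 CPM (n = 4) at d2. Among the 5 genes themselves, r ran from 0.75 for Piwil1 and Mael to 0.94 for Piwil4 and Morc1, and Morc1 ranked 98 among the genes nearest to Piwil4.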

How the data were processed

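The members and gene lists were chosen with earlier results of these data known. The deposited tables, 1 per age, hold raw counts per gene symbol and repeat name. Per the submitters' processing notes the authors worked with Bowtie, STAR, featureCounts and edgeR on build mm9, and the roles, order and versions are not given in the sources used here. Whether strand was used is not stated, so overlapping or antisense genes can share reads. Libraries were amplified with Ovation kits, per the labels' protocols. The series' design text names triplicates, but 4 libraries per genotype were analysed at d2.

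Repeat rows (43.2 to 65.0% of counts) were left out of library sizes. edgeR 4.0.16 in R 4.3.3 (filterByExpr with at least 10 counts, TMM, robust quasi-likelihood F test, Benjamini-Hochberg over all genes, threshold 0.05) was run per age for genotypes, and on all 20 libraries and 23853 shared symbols for ages and differences of the knockout effect. Alternatives were DESeq2 1.42.0, limma 3.58.1 (voom), other scalings, filters and samples, a replicate block and leaving out each library. Scripts were tested on simulated data. Other pathway genes named are up to 4 called per comparison with the smallest p, and likeness names the 3 highest r.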

Additional observations from a re-analysis of the deposited data

Results flagged for a closer look

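Within groups of 4 libraries, 4 values stood apart from the other 3 of their group, by a gap over 0.829 of the group's range (Dixon's 95% critical value). Only d2 has groups of this size, 12 groups were tested, and chance flags about 1 in 20. Piwil1 measured 32.6 CPM in heterozygous d2 replicate 2, above the others at 21.0 to 22.9 CPM. Without it the d2 knockout estimate of Piwil1 was -0.20 instead of -0.37. Piwil1 also measured 27.5 CPM in knockout d2 replicate 4, above 15.5 to 17.4 CPM, and without that library the estimate was -0.60. Piwil2 measured 561 CPM in heterozygous d2 replicate 2, above 464 to 474 CPM. Tex15, the disrupted gene, measured 101.5 CPM (799 counts) in knockout d2 replicate 2, while the other 3 knockout libraries of d2 measured 2.04 to 2.61 CPM. With that library in the group, the d2 difference of Tex15 between genotypes (log2 fold change -4.97, 31.3-fold lower) did not pass with edgeR (adjusted p = 0.167) and was called by DESeq2, and the number of genes called at d2 was 430 with it and 573 without it.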

How the results depend on the processing

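Of 1264 refits of single estimates (members and named genes), 1213 kept their direction and side of the threshold, 26 lost a call, and the 25 that changed sign were all of estimates not called. The count of members called between genotypes, and for the differences of the knockout effect, was 0 under every setting run. With genes and repeats as library size, a setting run without TMM scaling, the count for heterozygous d2 against e18.5 fell from 4 to 2. For knockout e18.5 against e16.5, 5 became 3 with DESeq2 and with median-ratio factors, and 3 to 5 when single libraries were left out. Sign changes of log2 estimates under genes and repeats as library size were -0.0693 for Piwil1 and -0.0689 for Piwil2 (knockout, e18.5), 0.11 for Piwil1 (heterozygous, d2 against e18.5) and -0.16 for Piwil4 (difference, e18.5 against e16.5). Under voom they were -0.009 for Piwil1 and -0.0445 for Piwil2 (knockout, e18.5) and 0.0734 for Piwil2 (heterozygous, e18.5 against e16.5), and without a filter -0.0053 for Piwil4 (difference, e18.5 against e16.5). The cause was not tested. Leaving out single libraries gave, between genotypes, -0.11 to 0.27 for Piwil4 at e16.5, -0.0109 to 0.12 for Piwil1 and -0.13 to 0.20 for Piwil2 at e18.5, and -0.12 to 0.0121 for Piwil2 at d2. In heterozygous e18.5 against e16.5 it gave -0.23 to 0.10 for Piwil2 and -0.18 to 0.0143 for Mael. For the difference of e18.5 against e16.5 it gave -0.18 to 0.21 for Piwil4 and -0.18 to 0.0547 for Morc1, and for d2 against e18.5 -0.24 to 0.0909 for Piwil2. Over all genes, knockout calls at e16.5, e18.5 and d2 numbered 1, 422 and 430, with DESeq2 22, 584 and 770, and with all ages in 1 fit 0, 152 and 770.

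The main fits did not pair samples by replicate number. Same-numbered libraries of the genotypes had deviations from their group means correlated from -0.25 to 0.11. At e18.5 these values, 0.05 to 0.11, lay above those of differently numbered libraries, -0.14 to 0.045. At e16.5 and d2 the ranges of same-numbered and differently numbered libraries overlapped. Whether the e18.5 libraries were paired is thus not settled. With the replicate number as a block the counts of members called were 0 between genotypes at each age and 3, 4 and 5 for the heterozygous steps, as without it, and the genes called over all went from 1 to 1 at e16.5, from 422 to 599 at e18.5 and from 430 to 235 at d2.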
